A study of Mus musculus with 4 samples.

Results

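The Cyp2 and Cyp4 genes encode 2 families of cytochrome P450 enzymes. Genes were taken as members where their symbol is Cyp2 or Cyp4 followed by 1 letter, a number and at most 1 further letter, which gave 68 of the 31054 features in the tables, 48 in Cyp2 and 20 in Cyp4. Expression was measured by single-cell RNA sequencing (10x Genomics GEM-X, read from transcript 3′ ends) of kidneys from male C57BL/6 mice that were 19 months old at the start of treatment. Over 1 month the mice received either BPTES, an inhibitor of the glutaminase GLS1, or its solvent DMSO. Each group had 2 libraries, called replicates 1 and 2 here. Cells were sorted by CD45, the surface marker of leukocytes, and 20000 negative and 9000 positive cells of a tissue were mixed for each library. The labels do not say which animals gave which library, so the p-values measure only the spread between these libraries.

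Cytochrome P450 enzymes are haem proteins of the endoplasmic reticulum that add an oxygen atom to fats, steroids, drugs and toxins, with electrons from P450 reductase. In the kidney, Cyp2c and Cyp2j enzymes turn arachidonic acid into epoxides and Cyp4a and Cyp4f enzymes hydroxylate the end of the fatty acid chain. These products act on renal blood flow and salt transport. Several mouse Cyp2 and Cyp4 genes differ between the sexes and along the proximal tubule, whose S1 and S2 segments lie in the cortex and whose S3 segment is the straight end part.

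The libraries held 17907 to 20091 barcodes and between 249881074 and 297947661 unique molecular identifiers (UMIs). Quality limits and removal of 3867 predicted doublets left 46738 of 76278 barcodes. Between 90 and 114 barcodes were shared by any pair of libraries. Clusters were named from marker genes, so each name below stands for cells like that type. The members were kept out of the genes used for clustering. Of 21717 proximal tubule cells, 15215 in 5 clusters were set as S1-S2 and 6098 in 3 clusters as S3, while 404 cells stayed without a segment. The segment was set by the relative levels of Slc5a2 and Slc5a12 (S1-S2) against Slc7a13 (S3). Cluster 12 of S3 also carried Slc5a12, at 1178.4 UMIs per 1000000 pooled over libraries, where the S1-S2 clusters ran from 218.6 to 3936.7. Its level relative to all proximal tubule cells was 3.656 for Slc7a13 and 0.596 for Slc5a2 and Slc5a12. It thus lay near the limit of 5 times that was used to set a segment. Levels are counts per 1000000 UMIs of the class (CPM), scaled by the trimmed mean of M values (TMM) where a class was tested, and are not divided by transcript length.

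The members fell into 18 subfamilies, the largest being Cyp2c with 15 genes, Cyp4f with 9, and Cyp2d, Cyp2j and Cyp4a with 8 each. All 68 matched a GENCODE M21 gene by identifier and all are protein-coding there. They lie mostly in gene clusters, with 18 on chromosome 4 (all of Cyp2j and Cyp4a among them), 15 on chromosome 7 and 15 Cyp2c genes on chromosome 19. In the proximal tubule, 10 members had no UMI in any library: Cyp2a22, Cyp2b19, Cyp2b23, Cyp2c37, Cyp2c50, Cyp2c70, Cyp2w1, Cyp4a29, Cyp4f37 and Cyp4f40. The filter on low counts was passed by 38 members in S1-S2 and by 36 in S3. All members together took 0.327% to 0.359% of the UMIs of S1-S2 and 0.555% to 0.643% of those of S3.

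Of the members with enough UMIs, most lay on the same side in every library when the segments were compared. The ratios are a description without a test, since the segments are clusters of the same cells. The counts go by direction alone, so that Cyp4f18, with S3 over S1-S2 ratios of 0.536 to 0.982, is counted. The like share of all genes was not computed, so the counts are not shown to be a trait of the members. In every library 15 members were higher in S3 and 17 were higher in S1-S2; 5 differed in direction between libraries, 7 had too few S1-S2 UMIs for a ratio in every library, and the other 24 had under 20 UMIs in each segment. Cyp2a4, a steroid hydroxylase, was 35.4 to 74.9 times higher in S3 over the 4 libraries. Cyp2d9, a testosterone hydroxylase, was 25 to 36.8 times higher there, and Cyp4a14, a fatty acid hydroxylase, 20 to 39.0 times. Cyp4a10, of the same subfamily, had ratios of 8.75 to 11.5. Cyp2a5, which hydroxylates coumarin, had ratios of 7.67 to 9.50, and Cyp2e1, which oxidizes ethanol, 3.53 to 5.26. Cyp4a12a, Cyp4a12b and Cyp4a31 were also higher in S3 in every library, with ratios between 1.79 and 3.36, whereas Cyp4a32 had ratios of 0.844 to 1.87. The split of reads between Cyp4a32 and its relatives Cyp4a10 and Cyp4a31 is uncertain, since 47.0% of the 90-base windows in the last 500 bases of its transcript also occur in theirs.

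The opposite side held several Cyp2c and Cyp2d genes. Cyp2c68 was 15 to 71.4 times higher in S1-S2 than in S3. Its S3 levels came from 3 and 10 UMIs with BPTES and 4 and 7 with DMSO, so the size of these ratios is uncertain. Cyp2c69 was 4.63 to 7.41 times higher in S1-S2, Cyp2d26 3.18 to 5.65 times and Cyp2d12 2.59 to 3.88 times. Cyp2c68 and Cyp2c69 share 28.0% and 23.8% of the 90-base windows in the last 500 bases of their transcripts with each other, Cyp2c40 and Cyp2c67, so the split of reads among these genes is uncertain. Cyp2j9 was 1.37 to 2.44 times and Cyp2j6 1.29 to 1.92 times higher in S1-S2 than in S3 as a whole. These ratios average over unlike S3 clusters. In cluster 12 of S3 both genes were above their S1-S2 levels in every library, as given below. Cyp2j5, an arachidonic acid epoxygenase, was nearly even, with S3 levels 0.859 to 1.01 times those of S1-S2. By these segment ratios members of 1 subfamily could take opposite sides: Cyp2j11 was 2.58 to 3.48 times higher in S3. Cyp2d9 and Cyp2d12 also lay on opposite sides.

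**Figure D1:**
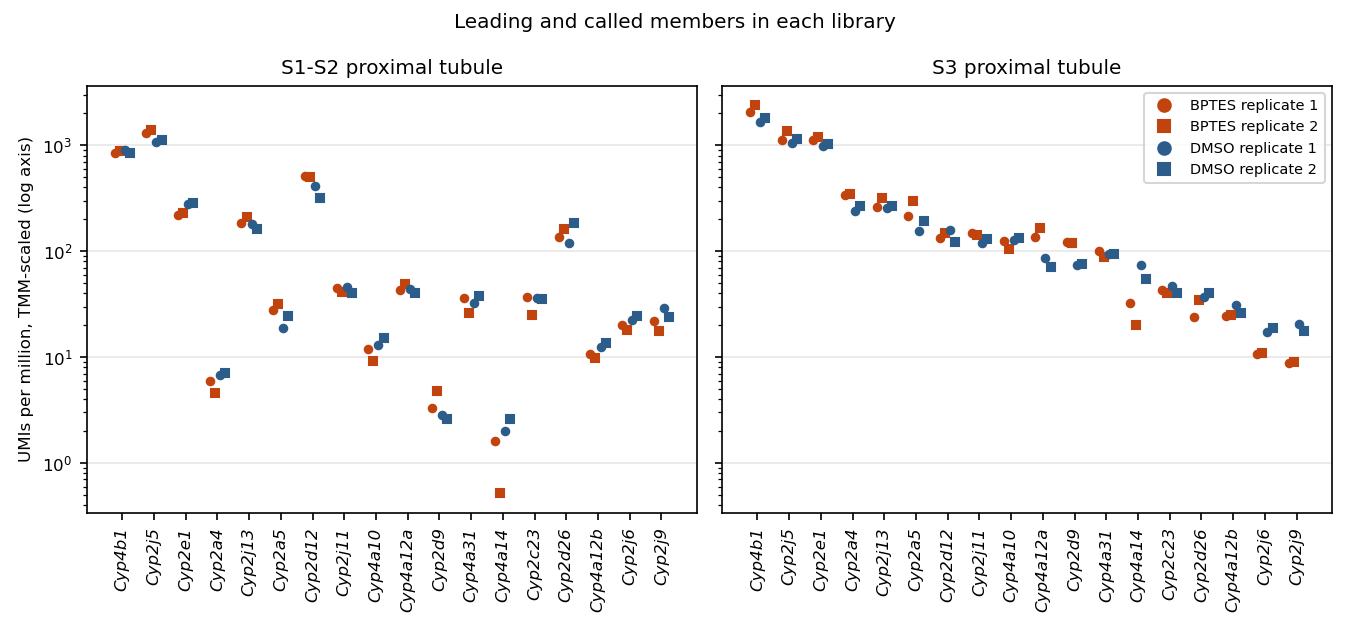
Levels of 18 members in S1-S2 (left) and S3 (right) as TMM-scaled CPM on a log axis, 1 point per library, BPTES in orange and DMSO in blue, circles for replicate 1 and squares for replicate 2. Cyp2a4, Cyp2d9 and Cyp4a14 stand far higher in S3 than in S1-S2, and in S3 the BPTES points of Cyp4a12a and Cyp2d9 lie above and those of Cyp2j6 and Cyp2j9 below the DMSO points.

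In S3, BPTES kidneys had higher levels of Cyp4a12a and Cyp2d9 and lower levels of Cyp2j6 and Cyp2j9. These 4 of the 36 members tested (11.1%) passed edgeR's quasi-likelihood test with Benjamini-Hochberg adjustment at 0.05, against 0.888% of the 14075 genes tested in S3. The 2 higher calls compare with 0.227% of all genes called higher and the 2 lower calls with 0.661% called lower. The median log2 fold change was -0.01 over the members tested and 0.01 over all genes. At an unadjusted p under 0.05 there were 14 of the 36 members tested, against 12.8% of all genes.

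Cyp4a12a, the chief arachidonic acid omega-hydroxylase of the male mouse kidney, lies at chr4:115299046-115332815 on the plus strand (GRCm38). Its S3 level was 135 and 166 CPM with BPTES and 86.1 and 71.6 with DMSO. Both BPTES libraries were above both DMSO libraries, with means of 150 ± 21.9 and 78.9 ± 10.2 (SD, n = 2 each). The log2 fold change was 0.93 (SE 0.13, edgeR adjusted p = 0.0131). With the replicate number as a block the change was again 0.93, but it did not pass (edgeR adjusted p = 0.0878). In S1-S2 the 4 levels were 42.6, 49.5, 44.1 and 40.1 in the same order, the groups overlapped, and the log2 fold change was 0.13 (SE 0.09, adjusted p = 0.404 with edgeR). Within cluster 19 of S1-S2 it was at 13.3 and 11.4 with BPTES and 31.2 and 21.0 with DMSO, and its log2 fold change there was -1.20 (SE 0.25, edgeR adjusted p = 0.0235), the single member called against 0.431% of all genes.

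Its near copy Cyp4a12b, at chr4:115411624-115439034, differs from it by 23 of 1527 coding bases (98.5% identity). The 120 coding bases that differ most between them (coding positions 646 to 765, GENCODE M21 transcripts) are shown to compare the pair, with the 8 differing bases in capitals.
Cyp4a12a: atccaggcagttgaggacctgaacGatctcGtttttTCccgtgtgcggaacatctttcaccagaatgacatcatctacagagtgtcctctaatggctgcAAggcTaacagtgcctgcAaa
Cyp4a12b: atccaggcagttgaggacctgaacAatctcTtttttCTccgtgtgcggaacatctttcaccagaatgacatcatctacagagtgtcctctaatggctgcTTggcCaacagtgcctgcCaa
Of all 90-base windows in the last 500 bases of the Cyp4a12a transcript, 30.2% also occur in Cyp4a12b, so reads from those windows cannot be assigned to 1 of them and the split between the pair is uncertain there. Cyp4a12b was counted at 24.6 and 25.1 CPM in S3 of the BPTES libraries and at 31.2 and 25.9 in the DMSO libraries. The BPTES values were the lower ones and the groups did not overlap, but the log2 fold change of -0.20 (SE 0.11) did not pass the edgeR test (adjusted p = 0.509) and was -0.06 with DMSO replicate 1 left out.

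Cyp2d9, at chr15:82433437-82456845 on the plus strand, stood at 121 and 119 CPM in S3 of the BPTES libraries and at 73.7 and 75.0 in the DMSO libraries. The groups were far apart relative to the spread within them, with means of 120 ± 1.53 and 74.4 ± 0.951 (SD, n = 2 each). The log2 fold change was 0.69 (SE 0.09, edgeR adjusted p = 0.00823). Its transcript shares 2.2% of the windows in its last 500 bases with other Cyp2d genes. In S1-S2 Cyp2d9 was scarce, at 3.29 and 4.76 CPM with BPTES and 2.86 and 2.59 with DMSO, and its log2 fold change of 0.56 (SE 0.20) had an edgeR adjusted p of 0.130 and was 0.27 with BPTES replicate 2 left out.

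Cyp2j9 and Cyp2j6 are neighbours on the minus strand of chromosome 4, at chr4:96568429-96591578 and chr4:96516138-96553661. Cyp2j9 was at 8.87 and 9.07 CPM in S3 of the BPTES libraries and at 20.4 and 17.5 in the DMSO libraries. Both BPTES values were below both DMSO values, and the level fell by 1.08 on the log2 scale (SE 0.12, edgeR adjusted p = 0.00423). Cyp2j6 was at 10.6 and 10.9 with BPTES and at 17.2 and 18.8 with DMSO. It too had BPTES values below both DMSO values, and it fell by 0.75 (SE 0.11, edgeR adjusted p = 0.0140).

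The RefSeq promoters of these neighbours (GRCm38.p6, minus strand) are shown because both genes fell in S3; the stretches are chr4:96553662-96553901 for Cyp2j6 and chr4:96591579-96591735 for Cyp2j9. Bases are printed up to the outermost annotated start, and the capitals mark the 2 words of at least 9 bases that both stretches hold.
Cyp2j6 promoter: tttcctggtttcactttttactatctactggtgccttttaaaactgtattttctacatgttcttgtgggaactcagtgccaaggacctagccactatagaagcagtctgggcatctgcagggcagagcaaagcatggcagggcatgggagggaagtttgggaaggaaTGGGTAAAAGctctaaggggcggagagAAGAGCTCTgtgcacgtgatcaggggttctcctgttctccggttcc
Cyp2j9 promoter: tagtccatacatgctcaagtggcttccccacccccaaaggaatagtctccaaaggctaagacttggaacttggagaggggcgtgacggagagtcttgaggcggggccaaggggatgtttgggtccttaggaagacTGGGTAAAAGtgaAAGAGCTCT
Searched on both strands, TGGGTAAAAG occurs in 0.059% and AAGAGCTCT in 0.311% of the 27025 RefSeq windows of 250 bases before a start. Among the 53 members with such a window only Cyp2j6 and Cyp2j9 hold either word. The words were found in these sequences and were not tested as sites. The TATA box TATAAA, on either strand, was present in 19 of the 53 member windows (35.8%) and in 13.0% of all windows, and neither Cyp2j6 nor Cyp2j9 holds it.

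S3 consisted of clusters 2, 7 and 12, and the shares of clusters 7 and 12 differed between the groups. Cluster 2 held 44.2% and 54.0% of S3 cells with BPTES and 53.3% and 52.1% with DMSO, so the groups overlapped. Cluster 7 held 38.6% and 32.4% of S3 cells with BPTES and 26.5% and 26.0% in the DMSO libraries. Its leading genes included Slc7a13, Kap and Slco1a1 and the members Cyp2a4, Cyp2a5 and Cyp2d9. The part of this share in their pooled S3 changes was not tested. Cluster 12 held 17.2% and 13.6% against 20.1% and 21.9%. The members were therefore also tested within each cluster, an alternative chosen after seeing the data.

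Cyp4a12a was higher with BPTES by nearly the same amount in each S3 cluster, with log2 fold changes of 0.91 (SE 0.20) in cluster 2, 0.84 (SE 0.14) in cluster 7 and 0.85 (SE 0.13) in cluster 12. It passed the edgeR test in cluster 12 (adjusted p = 0.00709), where 4 members passed against 0.608% of all genes tested, and missed it in clusters 2 and 7. Cyp2j6 and Cyp2j9 were found mainly in cluster 12. There Cyp2j9 stood at 35.9 and 33.8 CPM with BPTES and 78.2 and 54.0 with DMSO, and it fell by 0.88 (SE 0.17, edgeR adjusted p = 0.0458). Cyp2j6 stood there at 32.4 and 28.0 against 52.7 and 47.2 and fell by 0.68 (SE 0.13, edgeR adjusted p = 0.0293).

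In the other clusters of S3 the pair was low. Cyp2j9 averaged 1.04 CPM in cluster 2 and in cluster 7, and Cyp2j6 averaged 4.11 and 6.74. Cyp2j6 differed by 0.04 (SE 0.36) in cluster 2 and by -0.89 (SE 0.20) in cluster 7 on the log2 scale. Cyp2d9 differed by 0.52, 0.53 and 0.49 in clusters 2, 7 and 12, below its 0.69 over all of S3, and passed the edgeR test in none of them. The fourth call in cluster 12 was Cyp2d26, which fell by 0.72 on the log2 scale.

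**Figure D2:**
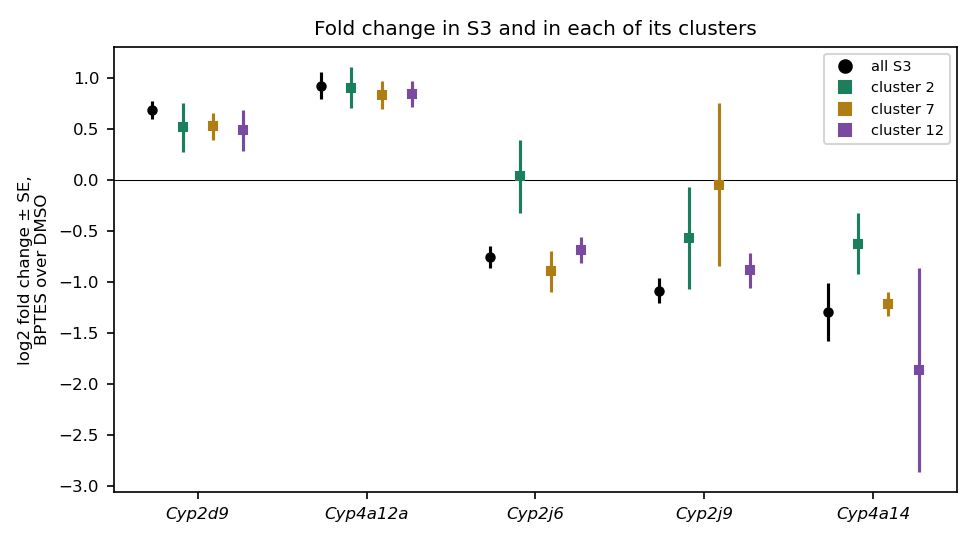
Log2 fold change with its standard error, BPTES over DMSO, of 5 members in all of S3 (black) and in each of its clusters (colours). Cyp4a12a lies between 0.84 and 0.93 in all 4 fits, while the Cyp2j6 change is near 0 in cluster 2.

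Cyp4a14, whose gene is a known target of the fatty acid receptor PPARA, had S3 levels of 32.2 and 20.2 CPM with BPTES and 74.5 and 54.8 with DMSO. Both BPTES libraries were lower, with a log2 fold change of -1.29 (SE 0.28), but the edgeR test was missed (adjusted p = 0.197). In cluster 7 alone Cyp4a14 was the single member that passed the edgeR test (adjusted p = 0.0495), with a fall of 1.21 (SE 0.12), against 0.0353% of all genes there. Cyp4a10 and Cyp4a31 had log2 fold changes of -0.18 and -0.01 in S3, and among the Cyp4a genes tested in S3 only Cyp4a12a passed the edgeR test.

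Other S3 members had groups that did not overlap without passing the edgeR test. The share of all S3 genes without overlap was not computed. Cyp4b1, a fatty acid and xenobiotic hydroxylase, was at 2070 and 2380 CPM with BPTES and 1660 and 1810 with DMSO (log2 fold change 0.36, adjusted p = 0.261 with edgeR). Cyp2a4 was at 337 and 345 against 242 and 270 (log2 fold change 0.41, adjusted p = 0.111 with edgeR). Within the clusters of S3 the Cyp2a4 log2 fold changes were 0.15, 0.11 and 0.25. Cyp4f17 was lower, at 3.13 and 3.79 against 5.51 and 5.98, with an edgeR adjusted p of 0.0882. Cyp2s1 had 3 and 5 UMIs in all of S3 with BPTES and 28 and 32 with DMSO, and an edgeR adjusted p of 0.110. Cyp2j7, Cyp2j8 and Cyp2j11 had log2 fold changes of -0.49, -0.41 and 0.22 without overlap and did not pass. Without BPTES replicate 2 the first 2 were -0.31 and -0.22, and without BPTES replicate 1 they were -0.74 and -0.67 and passed the edgeR test. The groups overlapped for Cyp2j5 (0.18) and Cyp2j13 (0.13). They did not overlap for Cyp2a5, at 213 and 300 CPM with BPTES and 156 and 192 with DMSO (log2 fold change 0.56, edgeR adjusted p = 0.235). The same held for Cyp2e1, at 1130 and 1210 against 991 and 1030 (0.21, edgeR adjusted p = 0.488). When replicate number was a block in the fit, Cyp4b1, Cyp2a4, Cyp4f17, Cyp4a14, Cyp2a5 and Cyp2e1 passed in S3, where 4.77% of all genes did.

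The count in S3 moved when 1 library was left out, a fit in which the lone library of a group is assumed to vary like those of the other group. Leaving out a BPTES library gave 8 calls (replicate 1 left out, 4.57% of all genes called) or 9 (replicate 2 left out, 3.56%). Leaving out a DMSO library gave 4 either time (1.67% and 0.756% of all genes), and Cyp4a12a, Cyp2d9, Cyp2j6 and Cyp2j9 were among the calls each time. DESeq2 called 6 members in S3 (1.61% of all genes), adding Cyp2a4 and Cyp2a5.

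Several measured features of S3 moved with the groups. The summed level of 10 injury markers was 137 and 148 CPM with BPTES and 432 and 415 with DMSO, with 9 of the 10 passing the filter, 1 called lower (Spp1) and Lcn2 at 0 in BPTES replicate 2. The summed level of 18 leukocyte markers was 102 and 110 against 150 and 152; none of the 18 was at 0 in a library and 3 were called lower (Cd74, C1qa and C1qb). The summed level of 10 dissociation and stress genes was 135 and 176 against 179 and 290, with 1 called lower (Ier2). Slc7a13 was at 761 and 764 against 501 and 565. The part of these features in the results was not tested.

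In S1-S2 no member passed. The edgeR test called 0 of the 38 members tested, against 2.14% of the 15260 genes tested there, and 13 members had an unadjusted p under 0.05 (26.5% of all genes did). DESeq2 called 6: Cyp2j5, Cyp2a5 and Cyp2d12 higher and Cyp2j8, Cyp2j9 and Cyp2e1 lower, where it called 8.77% of all genes. Leaving out a BPTES library gave 2 calls (replicate 1 left out, 2.71% of all genes) or 0 (replicate 2 left out, 0.0575%). Leaving out a DMSO library gave 1 (replicate 1 left out, 1.12%) or 2 (replicate 2 left out, 2.10%). The median log2 fold change was -0.10 over the members tested and -0.01 over all genes.

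The S1-S2 levels did not overlap between the groups for several abundant members, none of which passed the edgeR test. With 2 libraries a group, an exact permutation test of such a value could not go below 0.333. The share of all genes without overlap was not computed. Cyp2e1 was at 222 and 231 CPM with BPTES and 281 and 286 with DMSO, a log2 fold change of -0.32 (SE 0.07) that fell just short in edgeR (adjusted p = 0.0538). Cyp2j5 was at 1310 and 1400 against 1070 and 1120 (log2 fold change 0.31, edgeR adjusted p = 0.0700). Cyp2d12 was at 515 and 498 against 416 and 318 (log2 fold change 0.46, edgeR adjusted p = 0.0830, and 0.28 with DMSO replicate 2 left out). Cyp4b1 averaged 864 ± 23.7 CPM with BPTES and 866 ± 39.1 with DMSO (SD, n = 2 each), a difference below the spread between libraries. Cyp4a12b was lower by 0.34 and Cyp2j8 by 0.52 on the log2 scale in S1-S2, with edgeR adjusted p-values of 0.0864 and 0.0818, and the Cyp2j8 value was -0.31 with DMSO replicate 1 left out. When replicate number was a block in the fit, Cyp2e1, Cyp2j5, Cyp2d12, Cyp4a12b and Cyp2j8 passed in S1-S2, where 22.8% of all genes did. In all proximal tubule cells together edgeR called 0 of 41 members (0.767% of all genes), 13 had an unadjusted p under 0.05 (21.2% of all genes did), and DESeq2 called 6 (5.85% of all genes). That pooled count was 7 with BPTES replicate 1 left out (8.22% of all genes), 0 with BPTES replicate 2 left out (0.0359%), and 4 with either DMSO library left out (4.97% and 5.28%).

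Other features of S1-S2 moved with the groups too. Mitochondrial transcripts took 17.5% and 18.9% of S1-S2 UMIs with BPTES and 15% and 17.3% with DMSO. Of its 5 clusters, cluster 6 held 13.7% and 8.28% of the S1-S2 cells with BPTES and 21.2% and 16.4% with DMSO. Cluster 3, led in part by mitochondrial genes, held 16.4% and 20.6% against 14.5% and 14.9%. The summed level of the 10 injury markers was 833 and 945 CPM with BPTES and 1020 and 1490 with DMSO, with 4 called lower (Havcr1, Vcam1, Lcn2 and Sox9). The 10 dissociation and stress genes summed to 108 and 129 against 158 and 184, with 4 called lower (Jun, Junb, Egr1 and Dusp1). The 18 leukocyte markers summed to 107 and 106 against 148 and 171, with 4 called lower (Cd74, Cd52, C1qa and C1qb). No gene of these lists was at 0 in a library. Of the transcripts that define S1-S2, Slc5a2 was at 912 and 1010 against 625 and 792, while Slc5a12 was at 1910 and 1790 against 2210 and 1800. The part of these features in the S1-S2 differences was not tested.

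The segments were compared directly by the interaction of segment and treatment, with the library as a block. The treatment effect differed between S3 and S1-S2 for 8 of 40 members (20%), close to the 19.1% of all genes that did, with edgeR adjusted p-values from 1.96e-07 to 0.0289. The difference, as the log2 fold change in S3 minus that in S1-S2, was 0.80 (SE 0.08, edgeR adjusted p = 1.96e-07) for Cyp4a12a. It was 0.82 for Cyp2a4, which was 0.41 in S3 and -0.40 in S1-S2, and 0.54 for Cyp2e1, which was 0.21 in S3 and -0.32 in S1-S2. Cyp4b1 had a difference of 0.37. Negative differences were found for Cyp2j9 (-0.66), Cyp4f17 (-0.55), Cyp2j6 (-0.47) and Cyp2d12 (-0.47). For Cyp2d9 the difference of 0.16 did not pass, so its change was not shown to differ between the segments.

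**Figure D3:**
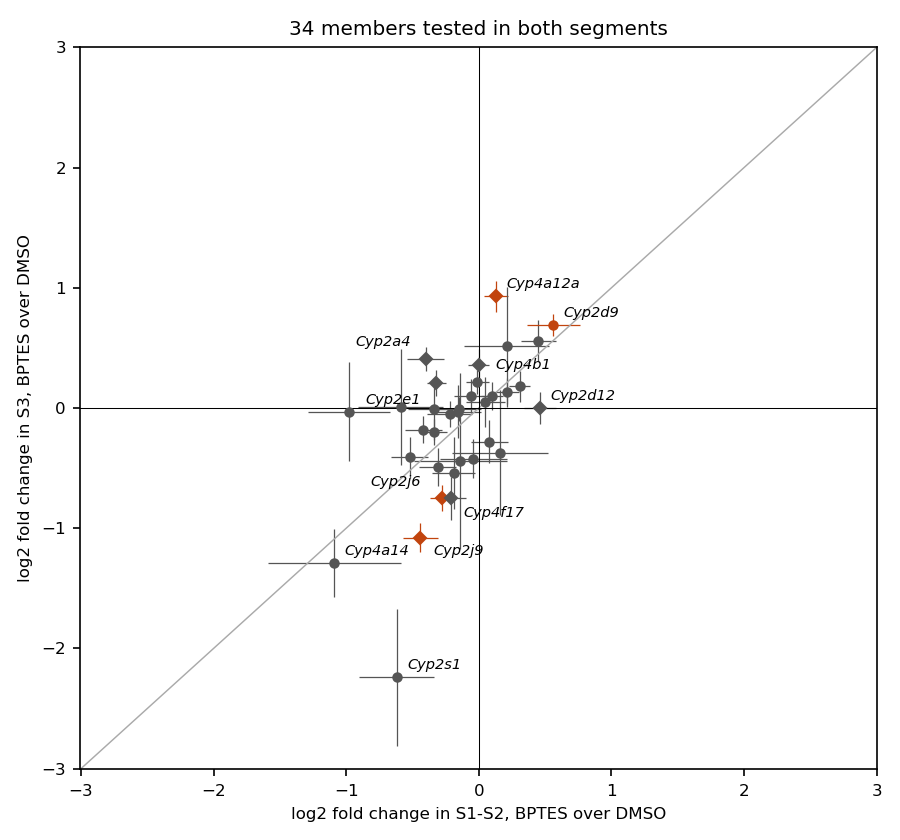
Log2 fold changes, BPTES over DMSO, in S1-S2 (horizontal) and S3 (vertical) with standard errors for the 34 members tested in both, orange where called in S3 and diamonds where the effect differed between segments, with a diagonal of equal change. Cyp4a12a lies well above the diagonal at 0.13 and 0.93, and Cyp2j9 and Cyp2j6 lie below it.

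A small cluster of 322 proximal tubule cells led by injury genes (26, 22, 155 and 119 cells in the 4 libraries) was described apart and not tested. Of the 21 members at 10 or more CPM in S1-S2 or S3, 8 were below both segments and 1, Cyp4a12b, was above both in the level pooled over libraries (29.0 CPM against 11.4 in S1-S2 and 27.3 in S3). Members entered by their segment levels, which favours values below the segments, and a member high only in this cluster could not enter. The like shares of all genes were not computed, so the counts do not set the members apart. By library Cyp4a12b was at 26.0 and 30.2 with BPTES and 34.5 and 22.8 with DMSO, so that BPTES replicate 1 and DMSO replicate 2 lay below the pooled S3 level. Cyp2j9, at 22.9 in S1-S2 and 15.1 in S3, stood at 1.39 from 9 UMIs, with 10.8 and 0 for BPTES and 1.31 and 0 for DMSO. Cyp2j5 stood at 758, against 1240 and 1150.

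Genes that work with the members were followed as lists. P450 reductase and 7 other genes of electron supply and haem removal had 0 calls in S1-S2 and 0 in S3, with medians of 0.03 and 0.17 in log2 fold change. Of 8 haem synthesis genes, 1 was called in S3: Alas1, the first enzyme of the pathway, was at 149 and 164 CPM with BPTES and 108 and 110 with DMSO (log2 fold change 0.53, edgeR adjusted p = 0.0360). Of 14 regulators tested in S1-S2, 1 was called: Ppara, the fatty acid receptor, at 274 and 295 against 195 and 204 (0.51, edgeR adjusted p = 0.0264). In S3 Ppara had a log2 fold change of -0.15 and 0 of 13 regulators were called.

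The 20 PPARA targets outside the P450 genes had a median log2 fold change of -0.26 in S1-S2, where that of all genes was -0.012. All 20 were at or below -0.02 and 1 was called lower. The share of all genes at or below -0.02 was not computed, so the count does not set the list apart. In S3 the median of the list was -0.11, against 0.011 for all genes, and its highest value was 0.16. The single call there was Fabp1, a fatty acid binding protein, which fell by 1.63 (edgeR adjusted p = 0.0286). Of 8 male- or androgen-responsive tubule genes, 1 was called in each segment. Slco1a1, an organic anion transporter, was at 224 and 262 in S3 with BPTES and 78.5 and 104 with DMSO (1.41, edgeR adjusted p = 0.00423). Slco1a1 is among the leading genes of cluster 7, whose share of S3 was larger with BPTES. Slc22a28, another organic anion transporter, rose by 0.65 in S1-S2 (edgeR adjusted p = 0.0176). Of the eicosanoid genes, 0 of 13 were called in S1-S2 and 1 of 11 in S3. The call was Ptgds, the prostaglandin D synthase, at 0.0493 and 0.0935 CPM with BPTES and 1.60 and 1.34 with DMSO. The BPTES levels rest on very few UMIs, so the size of this fall is uncertain. With members kept in clustering, Ptgds and the injury gene Havcr1 were among the leading genes of clusters 36 and 42. Cluster 36 held 22, 18, 115 and 90 cells in the 4 libraries, and cluster 42 held 6, 6, 37 and 107. The part of RNA from such cells in the Ptgds difference was not tested. The 31 P450 genes of other families had 0 calls among 11 tested in S1-S2 and 0 among 7 in S3, and medians of -0.08 and 0.01.

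Outside the proximal tubule, transcripts of proximal tubule genes were found in every class. Their level was measured with 17 such transcripts, leaving out Napsa, which leukocytes express (chosen after its values were seen). Their median in a class was 0.729% to 9.36% of that in the proximal tubule, and 33.7% in a small class that also carried injury genes and was named podocyte or parietal epithelium. That name is weakly based: 3 of 7 markers were detected and none was among the leading genes. The class held Slc5a12 at 494.8, Slc5a2 at 238.4 and Havcr1 at 224.2 CPM. Whether its tubule transcripts are its own was not tested. Members whose share of the proximal tubule level was above that of each of the 17 transcripts are described below as levels pooled over libraries.

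Cyp4f18, a hydroxylase of leukotriene B4, was high in several leukocyte classes but not in T cells. Its T cell means over libraries were 0.461 CPM with BPTES and 0.567 with DMSO. In neutrophils it stood at 366 and 399 CPM with BPTES and 410 and 480 with DMSO, against 0.347 in the proximal tubule. It stood at 139 in monocytes, 77.6 in B cells and 68.5 in macrophages. Cyp4f16 stood at 74.2 in monocytes and 62.1 in dendritic cells, against 2.20 in the proximal tubule, and its groups overlapped in monocytes. In dendritic cells it was at 57.5 and 51.4 with BPTES and 71.5 and 61.7 with DMSO, and in macrophages at 27 and 24.1 against 30.9 and 34.9. These groups did not overlap, and neither difference passed the edgeR test (adjusted p = 0.139 and 0.0941). In B cells it was at 9.32 and 4.50 against 12 and 16.3 (edgeR adjusted p = 0.235). Cyp4v3, a fatty acid hydroxylase, stood at 41.5 in intercalated cells, 34.8 in macrophages and 31.6 in monocytes, against 0.446. Cyp2r1, the vitamin D 25-hydroxylase, stood at 10.5 in B cells and 6.95 in macrophages, against 2.27.

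Several members were higher in distal nephron classes than in the proximal tubule as a whole. Cyp2j11 stood at 214 CPM in distal convoluted tubule and 169 in connecting tubule or principal cells, against 74.5 in the proximal tubule and 135 in S3. Cyp2j6 stood at 83.0 in connecting tubule or principal cells, 66.0 in distal convoluted tubule, 61.8 in intercalated cells and 57.8 in thick ascending limb, against 19.0. In connecting tubule or principal cells it was at 79.3 in both BPTES libraries and at 95.5 and 80.3 in the DMSO libraries, and no test was run there. Cyp2s1 stood at 68.4 in intercalated cells against 0.615, and Cyp2u1, a long-chain fatty acid hydroxylase, at 21.8 there and 21.1 in thick ascending limb against 3.74.

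Endothelial cells held Cyp4b1 at 309 CPM, 25.1% of the proximal tubule level, where the highest of the 17 transcripts reached 2.65%. They held Cyp2d22 at 112, against 12 in the proximal tubule, with 113, 118, 116 and 105 in the 4 libraries and no separation of the groups. Fibroblasts held Cyp2d22 at 67.2. A cluster of 222 cells held both smooth muscle and pericyte genes (Acta2, Myh11, Rgs5) and fibroblast genes (Dcn, Lum) among its leading genes. There Cyp2e1 stood at 30.2 and 28.9 with BPTES and 316 and 392 with DMSO, from 21, 17, 224 and 376 UMIs, and was not tested. Slc7a13, the S3 transcript, was at 0 in both BPTES libraries of that cluster and at 19.8 and 17.7 in the DMSO libraries. The S1-S2 transcripts lay the other way, with Slc5a2 at 63.3 and 73.2 for BPTES and 15.5 and 41.7 for DMSO, and Slc5a12 at 139 and 117 against 14.1 and 56.4. The part of tubule RNA in the difference was not tested.

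**Figure D4:**
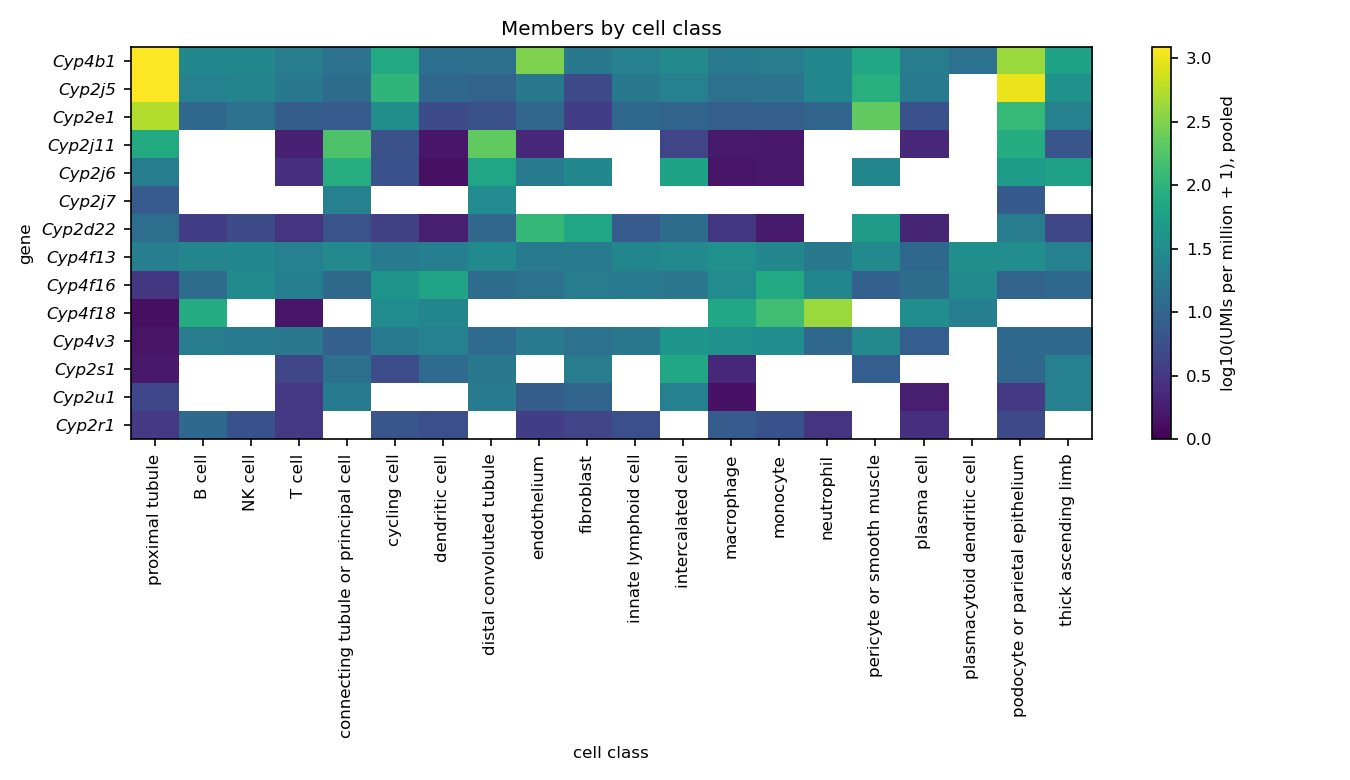
Levels of 14 members over the cell classes as log10(CPM + 1), libraries pooled, with white where a member had under 20 UMIs in a class. Cyp4f18 is brightest in neutrophils, Cyp2j11 in distal convoluted tubule and connecting tubule, and Cyp4b1 in the proximal tubule, with endothelium at 309.

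No member passed the edgeR test in the other classes tested. The calls were 0 of 24 members in T cells (0.116% of all genes), 0 of 25 in macrophages (3.11%), 0 of 20 in endothelium (0.777%), 0 of 16 in monocytes (0.288%), 0 of 20 in dendritic cells (2.96%) and 0 of 13 in B cells (0.641%). At an unadjusted p under 0.05 there were 1 of 24, 7 of 25, 2 of 20, 1 of 16, 5 of 20 and 7 of 13 members in the same order. The shares of all genes were 14.5%, 25%, 12.2%, 20.3%, 23.3% and 16.9%. DESeq2 called 3 members in macrophages (5.45% of all genes there), Cyp2j5, Cyp4b1 and Cyp2d12, all higher with BPTES, and none in the other 5 classes. With DMSO replicate 1 left out, edgeR called 4 members in macrophages (12.6% of all genes there) and 3 in B cells (9.48%). With DMSO replicate 2 left out it called 3 in macrophages (6.59%), and with either BPTES library left out it called 0 in all 6 classes, where it called at most 2.32% of all genes in a class (T cells).

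Tubule transcripts were measured in the same leukocytes. In macrophages Cyp2j5 was at 16.5 and 25 CPM with BPTES and 10.2 and 7.45 with DMSO (edgeR adjusted p = 0.0744). There Slc5a2, a transporter of the proximal tubule, was at 14.2 and 22.4 against 6.62 and 5.99, and Slc5a12 at 9.61 and 12.6 against 8.33 and 4.52. The groups overlapped for Slc7a13 and for Kap, which stood at 308 and 164 against 183 and 138. In B cells Cyp4b1 was at 45.3 and 30.4 against 20.8 and 13.7 (edgeR adjusted p = 0.110), and Slc5a2 was at 23.3 and 16.9 against 13.2 and 5.31. The groups overlapped there for Slc5a12, Slc7a13 and Kap. The part of RNA from tubule cells in these differences was not tested.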

How the data were processed

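The authors deposited unnormalized UMI counts for each gene in each barcode, made with Cell Ranger 8.0.1 on mm10 per the submitters' processing notes; the annotation is not given in the sources used here. Barcodes with at least 500 UMIs, at least 300 genes and at most 50% mitochondrial UMIs were kept, and Scrublet doublets were removed at 0.4% per 1000 barcodes (scanpy 1.11.5). Cells were clustered on 3000 variable genes, 40 components and 15 neighbours (leidenalg 0.10.2, resolution 1). A cluster was given a segment where the relative levels of Slc5a2 and Slc5a12 and of Slc7a13 differed at least 5 times, a limit set after seeing the data. UMIs were summed per library and class and tested with edgeR 4.0.16 (TMM, filterByExpr, robust quasi-likelihood, Benjamini-Hochberg over all genes, threshold 0.05); DESeq2 1.42.0 was an alternative. The scripts were tested on simulated data. Members and lists were chosen with earlier results of these data known. Named were the 10 members of highest mean level in S1-S2 and in S3, every member called in a class, members higher in another class than in the proximal tubule with at least 20 UMIs in each library of a group, and list genes called (at most 3 a list) or of highest level; further members and list genes were named after their values were seen. Some values that this rule covers are not reported here. Alternatives changed the scaling (RLE), the low-count filter (none), the clustering (resolution 2, or with the members kept in), the cells (a 25% mitochondrial limit, predicted doublets kept, segments by each cell's UMIs, single clusters) and the samples (a replicate block, each library left out in turn).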

Additional observations from a re-analysis of the deposited data

Results flagged for a closer look

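For 8 members the treatment effect differed between the proximal tubule segments in the test of the difference itself. The log2 fold change in S3 minus that in S1-S2 was 0.80 for Cyp4a12a, 0.54 for Cyp2e1, 0.82 for Cyp2a4, -0.47 for Cyp2d12, -0.66 for Cyp2j9, -0.47 for Cyp2j6, 0.37 for Cyp4b1 and -0.55 for Cyp4f17. Of all genes tested, 19.1% differed as well. The Cyp2a4, Cyp2e1, Cyp2j9 and Cyp4a12a differences were called in all 11 alternatives, and that of Cyp4f17 was lost in 4. None of these 11 was a fit within single clusters. Cyp2j6 and Cyp2j9 lay mainly in cluster 12 of S3, whose share of S3 cells was smaller with BPTES. Their log2 fold changes there were -0.68 and -0.88, against -0.75 and -1.08 over all of S3. Within the clusters of S3 the Cyp2a4 log2 fold changes were 0.15, 0.11 and 0.25, against 0.41 over all of S3, and cluster 7, which Cyp2a4 leads, held a larger share of S3 cells with BPTES.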

How the results depend on the processing

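Cyp2d9, Cyp2j6 and Cyp2j9 in S3 kept their direction and their call in all 13 alternatives other than single clusters, with log2 fold changes of 0.66 to 0.72, -0.85 to -0.68 and -1.19 to -0.96; Cyp4a12a (0.79 to 1.07) was lost under the replicate block. In 4 of the 13 a library was left out, so the other group alone supplied the spread. Cyp2d9 passed in no single cluster of S3. It is among the leading genes of cluster 7, which held a larger share of S3 cells with BPTES. Cyp2j6 and Cyp2j9 lay mainly in cluster 12, which held a smaller share of S3 cells with BPTES. They passed there, with log2 fold changes of -0.68 and -0.88 against -0.75 and -1.08 over all of S3. The part of these shares in the pooled changes was not tested. The cells set as S3 differed between settings. Cluster 2 of S3, with Acy3 and Ttc36 among its leading genes, held 3107 cells. In other settings a proximal tubule cluster with these leading genes stayed without a segment. It held 1862 cells with a 25% mitochondrial limit, 1944 with doublets kept and 2355 with members kept in clustering. The counts of called members depended on the setting. In S1-S2 the 0 became 6 with DESeq2 (8.77% of all genes called), 12 with no low-count filter (10.1%), 1 with a 25% mitochondrial limit (2.59%), 3 at resolution 2 (5.46%), 1 with members kept in clustering (3.70%), 6 with segments by each cell's UMIs (8.51%), 6 in cluster 0 alone (3.22%) and 1 in cluster 19 alone (0.431%), and 0 to 2 with 1 library left out. In S3 the 4 became 10 with no filter (2.69%), 10 with a 25% mitochondrial limit (3.50%), 7 with members kept in clustering (2.60%), 0 in cluster 2 alone (0.0254%), 1 in cluster 7 alone (0.0353%), and 4 to 9 with 1 library left out. In all proximal tubule cells the 0 became 6 with DESeq2, 10 with no filter (9.13%) and 0 to 7 with 1 library left out. Over the other classes the 0 became 3 with DESeq2, 8 with no filter (2.15% to 7.89% of all genes over the 6 classes), 1 with a 25% mitochondrial limit (0.109% to 4.70%), 4 with doublets kept (0.0231% to 5.75%), 1 at resolution 2 (0.125% to 2.38%), 3 with members kept in clustering (0.149% to 6.64%) and 0 to 7 with 1 library left out. The share of all genes called moved as well, from 0.0439% to 22.8% in S1-S2 and from 0.0254% to 4.77% in S3 over all settings, single clusters included. The interaction count of 8 stayed between 7 and 12, while the share of all genes ran from 6.93% to 26%. In single clusters, values with the other sign included Cyp2j11 0.37 in cluster 0 and Cyp4a12a -1.20 in cluster 19, both called there, and Cyp2j6 0.04 in cluster 2. The causes were not tested.

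The replicate numbers are shared by the groups, but nothing says that they pair the samples (same-numbered deviations correlated at 0.27 in S1-S2 and 0.31 in S3). With the replicate number as a block, the calls were 10 in S1-S2 (22.8% of all genes called), 9 in S3 (4.77%), 9 in all proximal tubule cells (17.9%) and 3 over the other classes, all in B cells (5.82%). With 2 libraries a group, an exact permutation test of 1 value could not go below 0.333, and members at a few UMIs per library cannot show a moderate difference.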
